A study of Ictalurus punctatus x Ictalurus furcatus and Ictalurus furcatus and Ictalurus punctatus with 8 samples.

Results

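Insulin-like growth factor binding protein 1 is encoded by a pair of paralogous genes in the catfish liver data, igfbp1a (ENSIPUG00000014271) and igfbp1b (ENSIPUG00000012949). They were taken by gene name, as 2 of the 13444 genes in the deposited expression table, and both passed the filter on low values, which 13420 genes passed. The other 16 rows whose names begin with igf or ghr were set beside them. Insulin-like growth factors (IGFs) are secreted growth factors made mainly by the liver, and most of the circulating peptide is carried by binding proteins. The binding protein igfbp1 is a small liver-secreted carrier that holds IGF away from its receptor. In mammals and in several fishes its liver transcript is raised by fasting, glucocorticoids and low oxygen and lowered by insulin, and zebrafish, like catfish, have an a and a b copy.

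Livers of 4 genetic types were compared, with 2 fish of each at 12 months of age, to find how expression in reciprocal hybrids relates to that of their parent species. F1CB hybrids had a channel catfish dam and a blue catfish sire, and F1BC hybrids had a blue catfish dam and a channel catfish sire. PC is channel catfish and PB is blue catfish, the parental types. Reads of all types were mapped to the channel catfish genome, and the effect of this on values of blue catfish and hybrids was not tested. Each type was kept in its own tank, so type and tank cannot be told apart. A limma p-value sets a difference between types only against the spread of livers within types. That spread was pooled over the 4 types and moderated with that of all genes. Values are CPM, read counts that the authors scaled to a common library total, and a difference is given as a log2 fold change of CPM + 0.5. A gene was called different when its adjusted p from limma was under 0.05 and its absolute log2 fold change was over 1.5. In bulk liver RNA, fewer cells of a type and less RNA per cell cannot be told apart.

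The 8 libraries summed to between 996838 and 998652 CPM, and their 20 most abundant genes took between 28.3% and 39.0% of the total. No counting error is given, since read depth per library is not used here. Of a list of 28 hepatocyte genes, 20 rows were measured, and their summed level lay between 178000 and 278000 CPM in each library. Exocrine pancreas genes (12 rows measured of 27 listed) summed to 3500 and 6260 CPM in F1CB, 3090 and 2050 CPM in F1BC, 8780 and 7600 CPM in PC, and 1740 and 3650 CPM in PB. Red blood cell genes (12 rows of 23) summed to between 615 and 2370 CPM. The livers overlapped between sires for both sums. Most of the pancreas sum in PC replicate 1 came from col and PNLIPRP2, and without these genes the sum was 712 and 4570 CPM in F1CB, 1230 and 262 CPM in F1BC, 270 and 3910 CPM in PC, and 1650 and 3600 CPM in PB, again overlapping. Over all genes the deposited values gave a median log2 fold change of -0.22 for F1CB against PC, -0.37 for F1BC against PC, -0.19 for F1CB against PB, -0.35 for F1BC against PB, 0.02 for PC against PB and 0.15 for F1CB against F1BC. Median-of-ratios scaling brought each of these 6 medians to within 0.02 of 0.

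The gene igfbp1b was abundant in both types with a blue catfish sire and scarce in both types with a channel catfish sire. It had 239.8 and 523 CPM in the F1CB livers, against 25.8 and 14.6 CPM in the F1BC livers. The parental livers had 10.6 and 19.4 CPM in PC, against 438 and 834 CPM in PB. All 4 livers of F1CB and PB lay above all 4 livers of F1BC and PC, with no value between 25.8 and 239.8 CPM. Within these pairs of types the livers overlapped, F1CB with PB and F1BC with PC. The type means were 381 ± 200.1 CPM in F1CB, 20.2 ± 7.89 CPM in F1BC, 15.0 ± 6.24 CPM in PC and 636 ± 279.9 CPM in PB (SD, n = 2 each).

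The gene igfbp1a was highest in PB and graded across the other types. It had 386 and 589.7 CPM in F1CB, and 307 and 197 CPM in F1BC. PC had 187 and 46.0 CPM, against 2151 and 1005 CPM in PB. The order of the means was PB, F1CB, F1BC and PC, and the livers of neighbouring types in this order did not overlap. F1CB livers all lay below PB livers for 29.2% of the genes tested, and F1BC livers all lay above PC livers for 13.2%. The means were 488 ± 144 CPM in F1CB, 252 ± 77.9 CPM in F1BC, 116 ± 99.3 CPM in PC and 1578 ± 810.2 CPM in PB (SD, n = 2 each). PC replicate 2 was the lowest of the 8 livers for igfbp1a but not for igfbp1b.

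**Figure D1:**
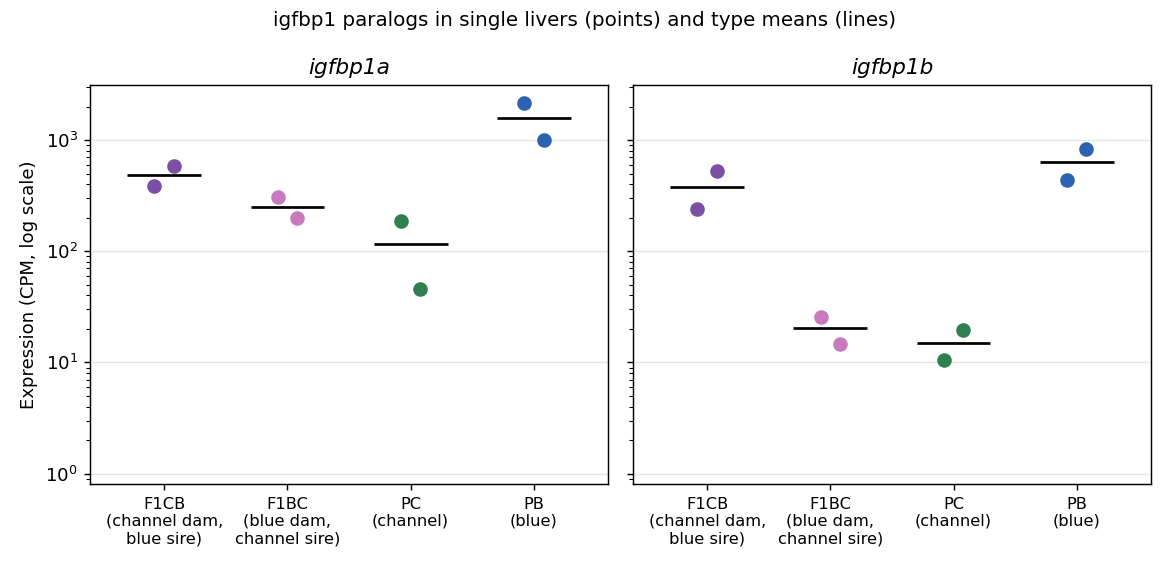
Level of igfbp1a (left) and igfbp1b (right) in CPM on a log axis, with 1 point for each of the 2 livers of a type and a line at the type mean. The igfbp1b points form a high set (F1CB and PB, 239.8 to 834 CPM) and a low set (F1BC and PC, 10.6 to 25.8 CPM), while the igfbp1a points step down through PB, F1CB, F1BC and PC.

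Between the parental species both paralogs were lower in PC than in PB, and both were called, where 15.8% of the genes tested were. For igfbp1b the mean was 42.5-fold higher in PB than in PC, a log2 fold change of -5.35 for PC minus PB (SE 0.52, adjusted p = 7.7e-05 from limma). It was the 14th lowest of the 13420 log2 fold changes in that comparison. For igfbp1a the mean was 13.6-fold higher in PB than in PC, a log2 fold change of -3.98 (SE 0.60, adjusted p = 0.00123 from limma), the 58th lowest. Both calls held with each of the 8 libraries left out in turn, with log2 fold changes between -5.81 and -4.89 for igfbp1b and between -4.98 and -2.98 for igfbp1a.

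The reciprocal hybrids carry a genome copy of each species and differ in which species was the dam and which the sire. Between them igfbp1b was called, and its mean was 18.9-fold higher in F1CB than in F1BC (log2 fold change 4.15, SE 0.52, adjusted p = 0.00774 from limma). Only 20 genes, 0.149% of those tested, were called in this comparison, and 0.0671% were called and higher in F1CB. By log2 fold change igfbp1b was the 6th highest of the 13420 genes. The call was lost without F1CB replicate 2 (3.59, adjusted p = 0.201 from limma) and without F1BC replicate 2 (3.75, adjusted p = 0.0755 from limma), and it held with any of the other 6 libraries left out. The paralog igfbp1a was not called between the hybrids, at 0.95 (SE 0.60, 95% interval -0.34 to 2.25, adjusted p = 0.737 from limma). Its F1CB livers lay above its F1BC livers, as did those of 28.7% of the genes tested, and the livers of the hybrids did not overlap in either direction for 46.1%.

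Against channel catfish, F1CB was the hybrid with the higher igfbp1 level. The igfbp1b mean was 25.5-fold higher in F1CB than in PC (log2 fold change 4.58, SE 0.52, adjusted p = 0.0016 from limma), the 11th highest of all genes, in a comparison where 2.03% of the genes tested were called. This call held with each library left out. The corresponding igfbp1a difference was 2.36 (SE 0.60, adjusted p = 0.0607 from limma) and was not called. It was called without PC replicate 1, whose igfbp1a level was the higher of the PC livers (3.36, adjusted p = 0.014 from limma), and was 1.35 (adjusted p = 0.317 from limma) without PC replicate 2. For F1BC against PC neither paralog was called, where 0.805% of the genes tested were. The igfbp1b difference was 0.43 (95% interval -0.69 to 1.55, adjusted p = 0.675 from limma), and that of igfbp1a was 1.40 (95% interval 0.11 to 2.70, adjusted p = 0.228 from limma).

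Against blue catfish, both paralogs were lower in F1BC and both were called, where 2.28% of the genes tested were. The igfbp1b log2 fold change was -4.92 (SE 0.52, adjusted p = 0.000554 from limma), the 3rd lowest of all genes, and it was called with each library left out. The igfbp1a log2 fold change was -2.58 (SE 0.60, adjusted p = 0.0452 from limma). That call was narrow, since it held in 2 of the 8 fits with a library left out, those without PC replicate 1 or 2, and was lost when libraries were scaled by median of ratios (-2.20, adjusted p = 0.0886 from limma). For F1CB against PB neither was called, where 1.42% of the genes tested were. The igfbp1b difference was -0.77 (95% interval -1.89 to 0.35, adjusted p = 0.53 from limma) and the igfbp1a difference was -1.62 (95% interval -2.92 to -0.33, adjusted p = 0.216 from limma).

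**Figure D2:**
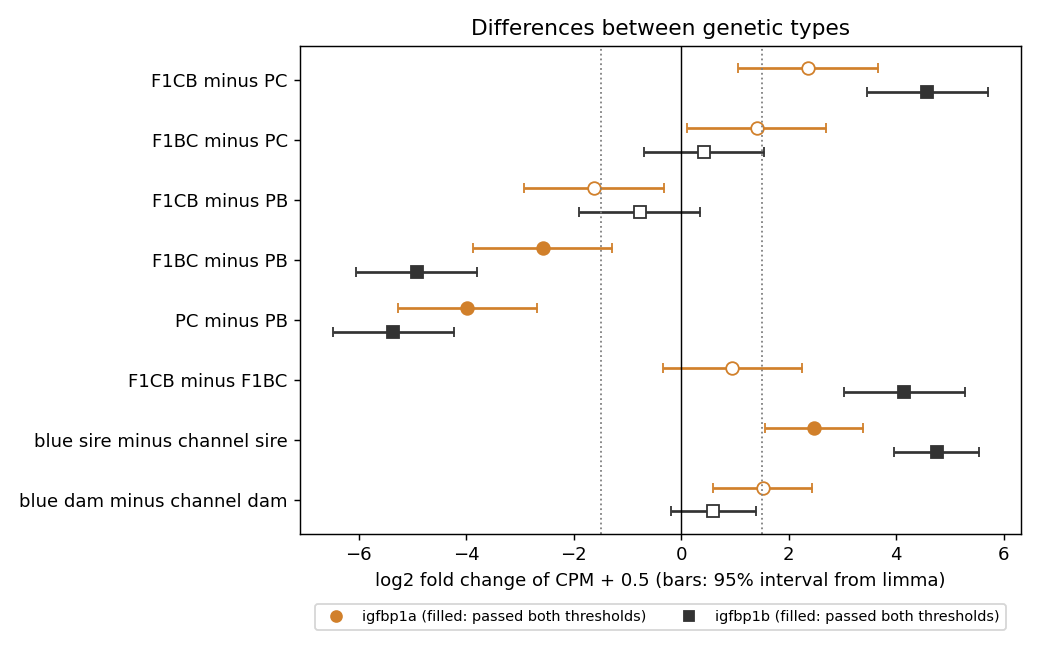
Log2 fold changes of CPM + 0.5 for igfbp1a (orange circles) and igfbp1b (black squares) in 6 comparisons of types and in the contrasts by sire and by dam, first named group minus second, with 95% intervals from limma. Filled symbols passed both thresholds and dotted lines mark a log2 fold change of 1.5 in either direction; igfbp1b was called in every comparison between a type with a blue sire and a type with a channel sire, and not within them.

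The hybrids were also set beside the mid-parent value, the mean of PC and PB on the log2 scale. For igfbp1b, F1CB lay 1.90 above it (SE 0.45, adjusted p = 0.166 from limma) and F1BC lay 2.25 below it (log2 difference -2.25, SE 0.45, adjusted p = 0.112 from limma). Neither was called, and of the genes tested 0.0522% were called for F1CB and 0.119% for F1BC. For igfbp1a the differences were 0.37 in F1CB and -0.59 in F1BC (adjusted p = 0.838 and 0.627 from limma). Against the arithmetic mean of PC and PB in CPM, F1CB stood at 1.17-fold for igfbp1b and at 0.576-fold for igfbp1a, below the mid-parent level where the log2 scale put it above, and F1BC at 0.0621-fold and 0.298-fold. The means of both paralogs lay between the parental means in both hybrids, which held for 49.0% of the genes tested in F1CB and for 44.7% in F1BC. Averaged over the reciprocal crosses, hybrids minus parents came to -0.17 for igfbp1b and -0.11 for igfbp1a (adjusted p = 0.862 and 0.928 from limma), where 0.0447% of the genes tested were called.

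Grouping the types by the species of the sire, a contrast added after the values had been seen, set F1CB and PB against F1BC and PC. For igfbp1b the difference was 4.75 (SE 0.37, adjusted p = 5.02e-05 from limma), the highest of the 13420 genes. On the log2 scale its levels lay between 7.91 and 9.70 in the 4 livers with a blue sire and between 3.47 and 4.72 in the 4 with a channel sire (exact permutation test, p = 0.0286, two-sided, the smallest that 4 against 4 allows). For igfbp1a the difference was 2.47 (SE 0.42, adjusted p = 0.00529 from limma), with levels of 8.60 to 11.07 for a blue sire and 5.54 to 8.27 for a channel sire (exact permutation p = 0.0286). Both were called with each library left out, and 5.28% of the genes tested were called, 2.56% with the higher level under a blue sire. For 10.4% of the genes tested the livers did not overlap between sires in either direction, and for 6.13% those with a blue sire were all higher. Of the 12 pancreas rows, col and PNLIPRP2 were called lower under a blue sire (-4.11 and -2.67). The other 10 had positive differences by sire, with a median of 1.58 and a range of 1.02 to 2.27, 0 called by limma and 4 at an unadjusted p under 0.05. Their part in the igfbp1 result was not tested. Each sire group holds a parental species, so the contrast also contains the difference between PC and PB. The exact permutation tests here and below treat livers that share a type and tank as independent. The split by sire was also seen before the grouping was made. Its p-values from limma and from permutation, its calls and the rank of igfbp1b therefore describe that split and are no test of it.

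By the species of the dam, also added after the values had been seen, F1BC and PB were set against F1CB and PC. The difference was 0.60 for igfbp1b (95% interval -0.19 to 1.39, adjusted p = 0.402 from limma) and 1.51 for igfbp1a (95% interval 0.60 to 2.43, adjusted p = 0.0692 from limma). Neither was called, where 2.91% of the genes tested were. The livers overlapped between dams for both paralogs, while those of 5.72% of the genes tested did not (exact permutation p = 0.6 for igfbp1b and 0.257 for igfbp1a). Without PC replicate 1 the igfbp1a difference was called (2.01, adjusted p = 0.00945 from limma).

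Levels of the paralogs were compared with each other per kilobase of transcript, since the listed transcripts are 2399 bases long for igfbp1a and 857 bases for igfbp1b. In F1CB, igfbp1b reached 280 and 610.1 CPM per kilobase and igfbp1a 161 and 246. In F1BC the order turned round, with 30.1 and 17.1 CPM per kilobase for igfbp1b and 128 and 82.2 for igfbp1a. PC livers had 12.3 and 22.6 CPM per kilobase of igfbp1b with 77.7 and 19.2 of igfbp1a, and PB livers had 511 and 973 of igfbp1b with 896 and 419 of igfbp1a. The paralog igfbp1b therefore made up 63.5% and 71.3% of the summed igfbp1 level in F1CB, 19.0% and 17.2% in F1BC, 13.7% and 54.1% in PC, and 36.3% and 69.9% in PB. Without division by length igfbp1a had the higher value in every liver. The shares agreed closely within each hybrid and spread widely within each parental species. The log2 ratio of igfbp1b to igfbp1a was 2.29 higher for a blue than for a channel sire, which did not pass (exact permutation p = 0.0571, two-sided, 4 against 4 livers), and -0.91 for a blue minus a channel dam (exact permutation p = 0.457). The sources used here do not say how reads that fit both paralogs were assigned.

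**Figure D3:**
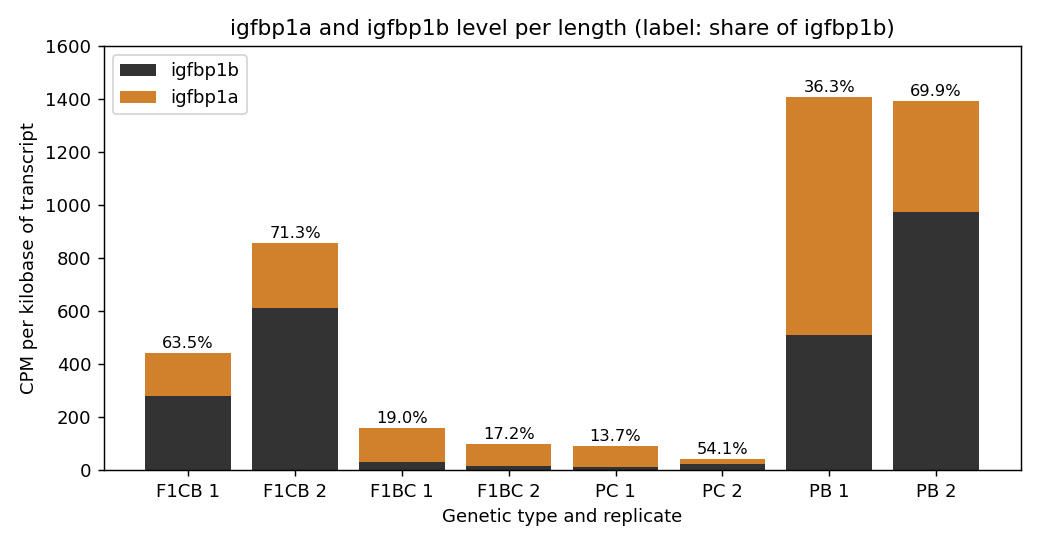
Level of igfbp1b (black) and igfbp1a (orange) in CPM per kilobase of transcript, stacked for each of the 8 livers, with the share of igfbp1b above each bar. The share is 63.5% and 71.3% in F1CB and 19.0% and 17.2% in F1BC, and the summed level is highest in PB, at 1408 and 1392 CPM per kilobase.

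No correlation of the paralogs pooled over the 8 livers is given as a result, because igfbp1b fell into separate high and low sets of 4 livers each, and 4 are too few for a correlation within a set. The liver with more igfbp1a was also the liver with more igfbp1b in 2 of the 4 types, F1CB and F1BC, and not in PC or PB. For igfbp1a with igf1, the main circulating IGF, Pearson's r was -0.36 (permutation p = 0.353, exact) and Spearman's rho was -0.50 (exact permutation p = 0.216). With adjustment over the 3 relations computed, which were the pooled relations of each paralog with the other and with igf1, these p-values were 0.353 and 0.267. Without PC replicate 2 and PB replicate 1 r was -0.59, and with median-of-ratios scaling r was -0.23 and rho -0.29. F1BC replicate 2, whose igf1 value was far above the others, was kept in each.

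The other rows of the IGF system were read beside the paralogs. Of the 16, 2 were called in any of the 6 comparisons, both of them for PC minus PB, where 15.8% of the genes tested were called. The share of all genes called in any of the 6 was not computed. In the contrast by sire 0 were called by limma, where 5.28% of the genes tested were (2 higher and 2 lower at an unadjusted p under 0.05). Livers did not overlap between sires for 3 of the 16 (18.8%, against 10.4% of the genes tested). The receptor row igf1rb was among them, with 3.71 and 3.52 CPM in F1CB, 3.30 and 1.48 CPM in F1BC, 2.86 and 2.74 CPM in PC, and 5.44 and 5.21 CPM in PB, a difference by sire of 0.70 (adjusted p = 0.238 from limma). The others were igf2bp2b, higher under a blue sire by 1.34, and the carrier igfbp5b, with a difference of -1.09 (adjusted p = 0.0288 and 0.0436 from limma), both under the fold threshold. The growth factor igf2 (ENSIPUG00000022309) had 168 and 146 CPM in F1CB, 130.4 and 159 CPM in F1BC, 272 and 222 CPM in PC, and 34.2 and 36.2 CPM in PB. Its levels were thus lowest in the species with the highest igfbp1 levels, and the PB livers lay below those of every other type. It was called for PC minus PB (2.79, adjusted p = 0.00048 from limma), with each library left out. Both F1CB and F1BC exceeded PB (2.14 and 2.02, adjusted p = 0.0134 and 0.0141 from limma), which held in 5 and 4 of the 8 fits with a library left out. The first was lost without either F1CB library or PB replicate 2 (adjusted p up to 0.149 from limma), and the second without any F1BC or PB library (up to 0.146). The other called row was igf2bp2b, an RNA-binding protein and no carrier of IGF, with 82.3 and 40.1 CPM in F1CB, 33.9 and 28.0 CPM in F1BC, 25.0 and 15.8 CPM in PC, and 86.6 and 56.7 CPM in PB (PC minus PB -1.79, adjusted p = 0.0218 from limma). It was not called without PC replicate 2 or either PB library (adjusted p up to 0.118 from limma).

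The liver growth factor igf1 had 6.62 and 12.7 CPM in F1CB, 9.35 and 92.6 CPM in F1BC, 8.12 and 11.1 CPM in PC, and 7.51 and 3.80 CPM in PB. The value of F1BC replicate 2 stood apart from the other 7, and igf1 was not called in any of the 6 comparisons (adjusted p from 0.147 to 0.984 from limma). The second IGF2 row, igf2b, lay between 2.71 and 13.4 CPM. The row igf2bp1 lay between 1.09 and 20.5 CPM, with a difference by sire of 1.75 that was not called (adjusted p = 0.0742 from limma). The row igf2bp3 lay between 0.122 and 2.15 CPM and igf2r between 0.142 and 1.40 CPM. The growth hormone receptor row ghr, through which pituitary growth hormone acts on the liver, had 324 and 532 CPM in F1CB, 393 and 372 CPM in F1BC, 744 and 385 CPM in PC, and 421 and 285 CPM in PB. Its livers overlapped between PC and PB, and the receptor-like row ghra stayed between 0.532 and 2.41 CPM. Neither was called in the 6 comparisons.

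Among the other IGF carriers, igfbp3 apart, the spread over livers was far narrower than for igfbp1. From the lowest to the highest liver, igfbp1b varied 79.0-fold and igfbp1a 46.7-fold, against 2.20-fold for igfbp2a, 2.84-fold for igfbp2b, 3.41-fold for igfbp5b and 3.39-fold for igfbp7. The row igfbp3, the carrier of most circulating IGF in mammals, varied 21.3-fold but without order by type, at 22.2 and 17.8 CPM in F1CB, 50.8 and 12.2 CPM in F1BC, 7.22 and 18.5 CPM in PC, and 25.7 and 2.39 CPM in PB. The acid labile subunit igfals, its partner in the circulating complex, lay between 87.3 and 308 CPM. None of these carriers was called in the 6 comparisons; igfbp5b came nearest, at 1.40 for PC minus PB (adjusted p = 0.0396 from limma), under the fold threshold.

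**Figure D4:**
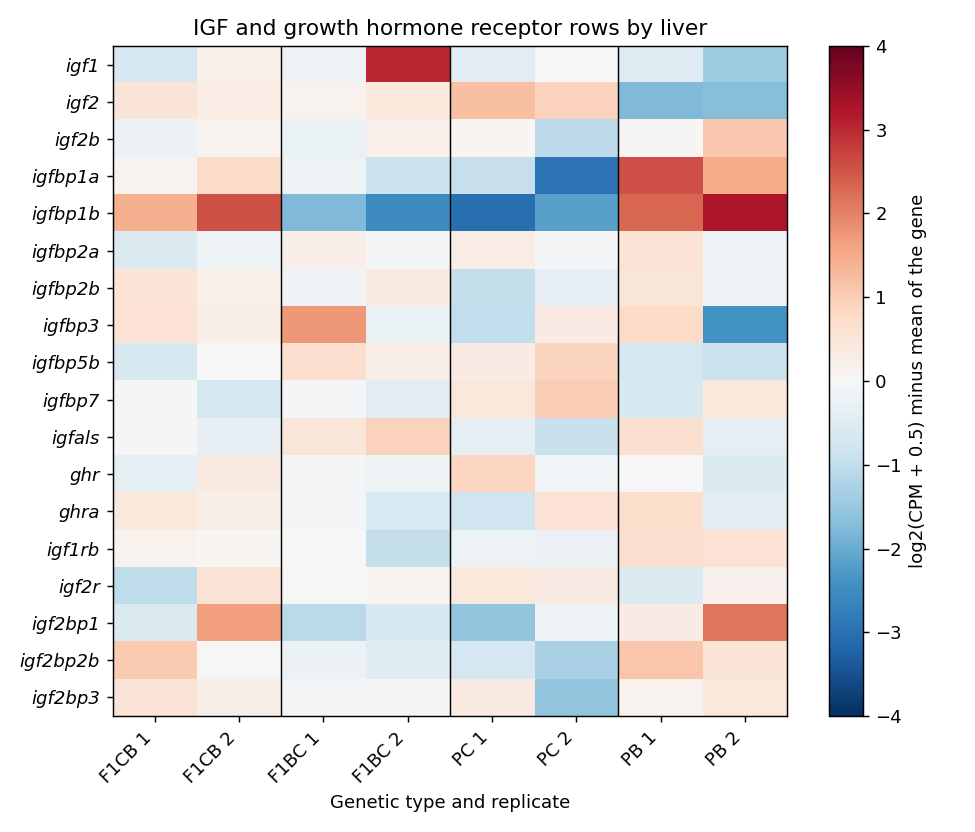
Heat map of the 18 rows named igf or ghr (down) in the 8 livers (across), coloured by log2(CPM + 0.5) minus the mean of the gene over the livers. Rows igfbp1a and igfbp1b carry the strongest contrasts between types, igf2 is low in both PB livers, and igf1 is high in F1BC replicate 2.

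The lists of genes around igfbp1 were read for how many members moved, beside the background of each comparison. Over all genes tested, 9.12% were called higher and 6.69% lower in PC than in PB. By sire, 2.56% were called higher and 2.72% lower under a blue than under a channel sire. The share of all genes at an unadjusted p under 0.05 was not computed. Counts at that threshold, above and below, therefore have no background and do not show that a list stands out. Of 25 rows of insulin signalling, 1 was higher and 5 were lower in PC than in PB. The lower ones were irs2a, irs2b, foxo1a, gsk3bb and akt2, and the higher one was pik3cb, a catalytic subunit of PI3-kinase. The akt2 call was not examined with a library left out. With a library left out, gsk3bb held in 3 of 8 fits (adjusted p up to 0.248 from limma), foxo1a in 5 (up to 0.0855) and pik3cb in 5 (up to 0.169), and irs2a and irs2b held in all 8. Insulin receptor substrate 2, an adaptor that passes the signal on from the receptor, was represented by irs2a and irs2b. The irs2b row was also called for F1BC minus PB (-1.79, adjusted p = 0.0452 from limma), from -2.14 to -1.44 with a library left out, and it was not called by sire. The irs2a row had 130.2 and 274 CPM in F1CB, 43.4 and 24.8 CPM in F1BC, 38.7 and 29.5 CPM in PC, and 508 and 417 CPM in PB. These irs2a livers split by sire as those of igfbp1b did, all higher under a blue sire, as were those of 6.13% of the genes tested. Unlike igfbp1b, irs2a was not called between the hybrids. The gene was called for F1CB minus PC (2.47, adjusted p = 0.0197 from limma), though not without F1CB replicate 2 (1.93, adjusted p = 0.221 from limma), and for F1BC minus PB (-3.79, adjusted p = 0.00103 from limma). By sire, irs2a (3.13), gsk3bb (1.92) and foxo1a (1.59) were called of the 25. The transcription factor foxo1a activates the igfbp1 promoter in mammals and is held out of the nucleus by insulin, and its transcript had 3.11 and 3.74 CPM in F1CB, 1.56 and 1.03 CPM in F1BC, 0.868 and 1.70 CPM in PC, and 6.74 and 6.49 CPM in PB. Its call by sire held in 3 of 8 fits with a library left out (adjusted p up to 0.0893 from limma), that of gsk3bb in 5 (up to 0.0954) and that of irs2a in 8 (up to 0.0043). At an unadjusted limma p under 0.05, 5 of the 25 rows were higher and 2 lower under a blue sire. By that threshold 5 were higher and 6 lower in PC than in PB. The median over the 25 rows by sire was 0.16, against 0.06 over all genes.

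In a list of 17 rows raised by fasting, 2 were higher and 1 was lower under a blue than under a channel sire. The higher ones were pdk2a, a kinase that turns off pyruvate dehydrogenase, and sesn1, a sestrin that restrains growth signalling. The gene pdk2a had 31.9 and 59.4 CPM in F1CB, 6.08 and 5.40 CPM in F1BC, 5.66 and 8.92 CPM in PC, and 290.1 and 281 CPM in PB. It was called for F1CB minus F1BC (2.82, adjusted p = 0.0285 from limma), which held only without PC replicate 1 or 2 and reached an adjusted p of 0.547 from limma with another library left out. The gene sesn1 had 914 and 3117 CPM in F1CB, 325 and 56.4 CPM in F1BC, 229 and 318 CPM in PC, and 1022 and 1771 CPM in PB. Other members did not follow. The gene lpin1 was called lower under a blue sire (-2.57) and about as much lower under a blue dam (-2.58). The fatty acid sensor of the fasted liver, pparaa, was higher in PC than in PB (2.51, adjusted p = 0.00487 from limma). By sire, 4 rows of the list were higher and 5 lower at an unadjusted p under 0.05 from limma, and the list's median was -0.22.

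Glucocorticoid-responsive genes gave 4 of 14 rows higher and 0 lower under a blue sire by limma, with 7 higher and 2 lower at an unadjusted p under 0.05, and a median of 0.75. They were TSC22D3, a leucine zipper protein raised by cortisol (2.50), SGK1, a kinase (2.29, lost without F1CB replicate 2 at an adjusted p of 0.0561 from limma), dusp1, a phosphatase that quiets MAP kinases (1.95), and hsd11b2, which inactivates cortisol. TSC22D3 had 492 and 505 CPM in F1CB, 122 and 70.2 CPM in F1BC, 122 and 136 CPM in PC, and 722 and 814 CPM in PB, and like igfbp1b it was called between the hybrids (2.42, adjusted p = 0.0285 from limma). That call also held only without PC replicate 1 or 2, with adjusted p up to 0.443 from limma without another library. Between PC and PB, 2 of the 14 were higher in PC, among them the receptor row nr3c1, and 5 were lower. A second receptor row, NR3C1, had 1.01 and 2.36 CPM in PC and 1.11 and 0.221 CPM in PB, which overlapped. The members akt2, hsd11b2 and nr3c1 were named after their values had been seen. Their calls were not examined with a library left out. The hsd11b2 livers overlapped between sires, with 16.1 CPM in F1CB replicate 1 against 19.2 CPM in PC replicate 2.

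The other lists were read in the same way, with no test between lists. Of 25 hypoxia rows 0 were higher and 1 was lower under a blue sire by limma, the glucose transporter slc2a1b, against 6 higher and 3 lower at an unadjusted p under 0.05. Among 18 rows of genes that insulin raises, 2 were higher and 0 lower by limma (3 and 2 at an unadjusted p under 0.05). They were me1, which acts in lipid synthesis, and pnpla3. Of the same list, scdb and thrsp were called higher in F1BC than in PB (3.62 and 1.97, adjusted p = 0.048 and 0.0277 from limma), and 0 were called lower. The deposited description of the pnpla3 row is patatin-like phospholipase domain-containing protein 2, so its place in this list is uncertain. The pnpla3 call held in 3 of 8 fits with a library left out (adjusted p up to 0.112 from limma) and the me1 call in all 8. The stress response to unfolded protein or amino acid shortage gave 2 of 14 higher, vldlr and chac1, and 0 lower by limma (6 and 0 at an unadjusted p under 0.05). The chac1 call held in 4 of 8 fits (adjusted p up to 0.0964 from limma) and the vldlr call in all 8. Of 13 rows of growth hormone signalling 0 were called by sire by limma, against 1 higher and 3 lower at an unadjusted p under 0.05. Against PB, cish, a growth hormone target that dampens the signal, was lower in F1CB (-2.73, adjusted p = 0.0451 from limma, held in 2 of 8 fits) and in PC (-2.07, adjusted p = 0.0327 from limma, held in 5 of 8). The protease row htra1a was higher than in PB in F1CB and PC, in all 8 fits, and in F1BC, in 3 of 8 (adjusted p up to 0.236 from limma).

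**Figure D5:**
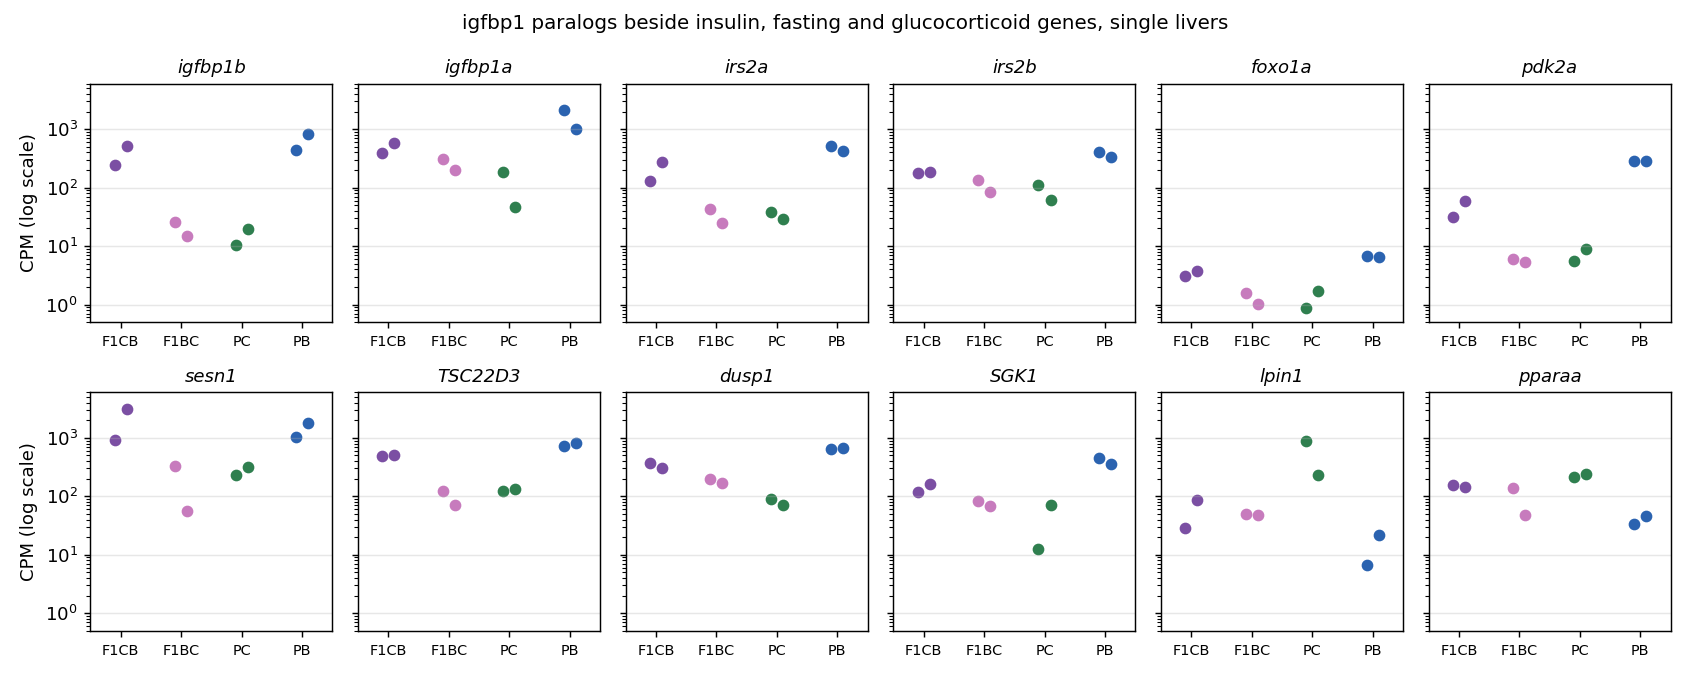
CPM on a shared log axis for igfbp1b, igfbp1a and 10 called genes of the insulin, fasting and glucocorticoid lists, with 1 point for each liver of F1CB, F1BC, PC and PB. The genes irs2a to SGK1 were picked after their values had been seen, as genes with higher levels under a blue sire, so their likeness to igfbp1b is no result. Of them irs2b was not called by sire. Livers with a blue sire were all higher for 6.13% of the genes tested. The genes lpin1 and pparaa are members of the fasting list that went the other way. So did pik3cb and nr3c1 of the other lists, not shown, between PC and PB.

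The genes most like each paralog were found by Pearson correlation on log2(CPM + 0.5) over the 8 livers, which share type and tank within each pair. For igfbp1a they were ephb1 (r = 0.983, at only 0.269 to 5.13 CPM), ankrd33bb (0.983, at 0.082 to 5.78 CPM), kctd2 (0.982), dym (0.981) and slc16a5a (0.975). Of these dym was the most abundant, with 42.8 and 57.6 CPM in F1CB, 36.6 and 19.8 CPM in F1BC, 13.1 and 6.34 CPM in PC, and 152 and 111 CPM in PB. It shows the same graded order of types as igfbp1a, which follows from its choice by correlation over the same livers. For igfbp1b they were pld2 (0.984, at only 0.351 to 2.98 CPM), si:ch211-161h7.8 (0.973, at 0 to 14.6 CPM), nol10 (0.972), marcksl1b (0.971) and tomm70a (0.970). Their ranges were narrower than that of igfbp1b in most cases, as for tomm70a, with 57.9 and 70.8 CPM in F1CB, 42.0 and 41.5 CPM in F1BC, 39.2 and 34.8 CPM in PC, and 65.7 and 70.8 CPM in PB. By this measure the paralogs were positively related to each other (r = 0.799), though the listed genes were nearer. The other paralog stood at rank 647 of 13419 for igfbp1a and 919 for igfbp1b. This r is a description only, because igfbp1b fell into separate high and low sets.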

How the data were processed

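Polyadenylated RNA of the 8 livers was sequenced as paired ends. The submitters' processing notes name FastQC 0.11.5, Trimmomatic 0.39, TopHat2 2.1.1, bedtools 2.29.0 and edgeR. Reads of all types were mapped to the channel catfish genome. The labels name a directional kit. The genome build, and whether counting used the strand, are not given in the sources used here. The authors deposited values they call RPKM, which were treated as CPM: the library totals lie between 996838 and 998652, and the log2 of a gene's mean differs from the authors' deposited average log2 value (used only for this check) by a median of -0.0089, or by -1.68 after division by transcript length. No whole reads were recovered from low values, so no count test was run. The deposited fold changes and p-values of the authors' own comparisons were not used.

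The 13420 genes whose mean passed 1 CPM in some type were tested with limma 3.58.1 in R 4.3.3 on log2(CPM + 0.5), with an intensity trend and all 8 libraries in 1 fit. Benjamini-Hochberg adjustment was made within each comparison over all genes tested. The same fit gave the mid-parent contrasts. A fold change on this scale understates that of low genes. Exact permutation tests used scipy 1.17.1 in Python 3.11.15. The procedure was tested on simulated data.

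The paralogs and the gene lists, written from general knowledge of the proteins, were chosen with earlier results of these data known. The contrasts by sire and by dam and the test of the paralog ratio were added after the values had been seen. The text names igf1, igf2 and the growth hormone receptor rows, any other igf or ghr row that was called, with the ranges of the rest, and the 5 genes with a symbol most correlated with each paralog. List members were taken from up to 5 of a list called in any of the 6 comparisons by size of change. Not all of these are named, and those named were chosen after their values had been seen. Among those left out are socs1a, trib3, klf9, sgk2a, aclyb and p4ha2. The members akt2, hsd11b2 and nr3c1 were named outside this rule. Alternatives tried were median-of-ratios scaling, a filter of 5 CPM or none, pseudocounts of 0.1 and 1, values per transcript length, a fit of the compared types alone, the replicate number as a block, and each library left out.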

Additional observations from a re-analysis of the deposited data

How the results depend on the processing

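All values here are log2 fold changes with adjusted p from limma unless a share is named. The calls by sire describe a split that was seen before the contrast was made. Of the called paralog differences, those of igfbp1b for F1CB minus PC, F1BC minus PB, PC minus PB and by sire, and those of igfbp1a for PC minus PB and by sire, were called under every alternative run. For igfbp1a in F1BC minus PB, the call was lost with median-of-ratios scaling (-2.20, 0.0886), a filter at 5 CPM (-2.58, 0.0513) and values per transcript length (-2.57, 0.0731), and with 6 of the 8 libraries left out in turn (-3.12 to -2.03, 0.00642 to 0.261 over all 8). With a library left out, igfbp1b in F1CB minus F1BC ranged from 3.59 to 4.71 (0.00477 to 0.201), igfbp1a in F1CB minus PC from 1.35 to 3.36, and igfbp1a by dam from 1.01 to 2.01. The igfbp1a difference of F1CB from the mid-parent value ranged from -0.13, without PC replicate 2, to 0.87. Without division by transcript length the igfbp1b share was 38.3% and 47.0% in F1CB, 7.74% and 6.91% in F1BC, 5.36% and 29.6% in PC, and 16.9% and 45.3% in PB, lower by the construction of the measure.

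The number of genes called moved with the setting. It was 273 for F1CB minus PC (29 to 1104 with a library left out, 96 to 711 under the others), 108 for F1BC minus PC (18 to 399, 29 to 322), 191 for F1CB minus PB (44 to 316, 127 to 354), 306 for F1BC minus PB (63 to 535, 222 to 612), 2122 for PC minus PB (928 to 2568, 1361 to 2419) and 20 for F1CB minus F1BC (3 to 30, 9 to 38).

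Replicate numbers were shared between types and were not taken to pair the samples, because the correlation of replicate differences was not over 0.1 in every pair of types. It was -0.01 for F1CB with F1BC, 0.14 for F1CB with PC, 0.07 for F1BC with PC, 0.13 for F1CB with PB, 0.11 for F1BC with PB and 0.12 for PC with PB. The replicate block gave 711 genes called for F1CB minus PC, 322 for F1BC minus PC, 354 for F1CB minus PB, 612 for F1BC minus PB, 2419 for PC minus PB and 27 for F1CB minus F1BC. With it, 3 further differences were called, igfbp1a in F1CB minus PC (2.36, 0.0179), igfbp1b in F1BC minus the mid-parent value (-2.25, 0.0355) and igfbp1a by dam (1.51, 0.0223), and no call was lost.

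With 2 livers a type, 1 fish can decide a call, and read depth per library is not used here. Replicates of a type shared a tank.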
